A study of Zea mays with 7 samples.

Results

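*BIF1* (*GRMZM2G130953*) and *BIF4* (*GRMZM5G864847*) are paralogous maize genes that encode Aux/IAA proteins, and both were taken from the gene counts by their identifiers, as 2 of the 110451 genes in the table. They were followed in RNA-seq of 3–4 mm ear primordia from *Bif3* mutants and their wild-type siblings. *Bif3* is a dominant mutation in which *ZmWUS1* is duplicated in tandem, it is known from 1 allele, and all pools were in the B73 background. The labels call the mutants *Bif3* without a zygosity, state that ears were taken by their mutant appearance, and the Methods of the study describe them as homozygous (*Bif3/Bif3*). The 3 wild-type and 4 *Bif3/Bif3* pools held 3 field-grown ear primordia each, and no other allele or treatment is given.

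Aux/IAA proteins are repressors of the auxin response. At low auxin they bind auxin response factors (ARFs) at target genes and recruit TOPLESS-type corepressors such as REL2. Auxin brings them to a TIR1/AFB receptor complex through a short degron, and they are then degraded, which frees the ARFs. In maize, dominant mutations in the degron of *BIF1* or *BIF4* stabilize the repressor and give barren inflorescences, because axillary meristems (AMs) fail to form. The bHLH gene *BA1*, required for AM initiation, is a known target of this module. Many *Aux/IAA* genes are themselves induced by auxin.

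Total counts per pool were between 41720131 and 56057512, and a count of 3 in a pool, taken as the detection limit, was at most 0.0719 CPM (counts per 1000000 of the TMM-scaled library size). Every pool had at least 243 counts of either gene. Counting error alone leaves that lowest value between 213 and 276 counts (exact Poisson interval, 95%), which is narrower than the range of *BIF4* over the pools. *ZmWUS1*, which checks the genotype labels, had 0.551, 0.324 and 0.320 CPM in wild-type and 4.31, 5.13, 3.82 and 12.8 CPM in *Bif3/Bif3*, replicates in numerical order as in all lists here. The shoot meristem marker *KN1* was abundant in all 7 pools, at 418 to 617 CPM. Of the 4 matched genes known from green leaves, *PEP1* had no count and *SSU1* at most 1.12 CPM in any pool, and the summed level of the list was 26.7 to 31.3 CPM in wild-type and 24.9 to 46.6 CPM in *Bif3/Bif3*. In this list *ME3* was lower in *Bif3/Bif3*, and *PDK1*, which made up most of the sum in the mutants, had 15.1 to 19.2 CPM in wild-type and 16.9 to 39.1 CPM in *Bif3/Bif3* without passing the test. Whole ear primordia were sequenced, so that more cells expressing a gene cannot be told apart from more RNA per cell.

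*BIF4* was higher in *Bif3/Bif3* ear primordia. It had 8.48, 4.37 and 7.85 CPM in wild-type and 15.3, 14.5, 9.28 and 25.0 CPM in *Bif3/Bif3*. The most *BIF4* was found in mutant replicate 4, and the least among mutants in replicate 3. All 4 mutant pools lay above every wild-type pool, which held for 10.1% of the 19707 genes whose mean log2 CPM was at least 1. The gap was narrow, and the lowest mutant pool was 1.09-fold above the highest wild-type pool. Mutant pools averaged 16.0 ± 6.56 CPM (SD, n = 4) and wild-type pools 6.90 ± 2.21 CPM (SD, n = 3). In the quasi-likelihood model of edgeR, with p-values adjusted by the Benjamini-Hochberg method over every gene of the table, *BIF4* had a log2 fold change of 1.22 with a standard error of 0.26 and an adjusted p of 0.0268. This is 2.33-fold, with a 95% interval from 1.59-fold to 3.41-fold. *BIF4* was thus past the threshold of the study's methods, a p under 0.05, an adjusted p under 0.1 and a fold change over 1.5. Over all genes 1% were past it and higher in *Bif3/Bif3*, and 4.21% of those whose mean log2 CPM was at least 1 were.

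The support for *BIF4* varied with the test. Exact permutation of the genotype labels over all 35 splits, two-sided on mean CPM, gave p = 0.0571 for *BIF4*, and this design cannot give a p below 0.0286. With the quasi-likelihood fit of edgeR 4 the fold change was nearly the same but the adjusted p of *BIF4* was 0.111, which does not pass the threshold. Over 15 alternatives with edgeR, DESeq2 or limma its adjusted p lay between 9.23e-04 and 0.111.

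The change of *BIF4* was smaller without *Bif3/Bif3* replicate 4, with a log2 fold change of 0.91 (edgeR adjusted p of 0.0536), still past the threshold. It was 1.41 without replicate 3, the mutant pool nearest to wild-type. *ZmWUS1* also had its highest value in replicate 4 and its lowest mutant value in replicate 3, while replicates 1 and 2 were in the opposite order in the 2 genes.

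**Figure D1:**
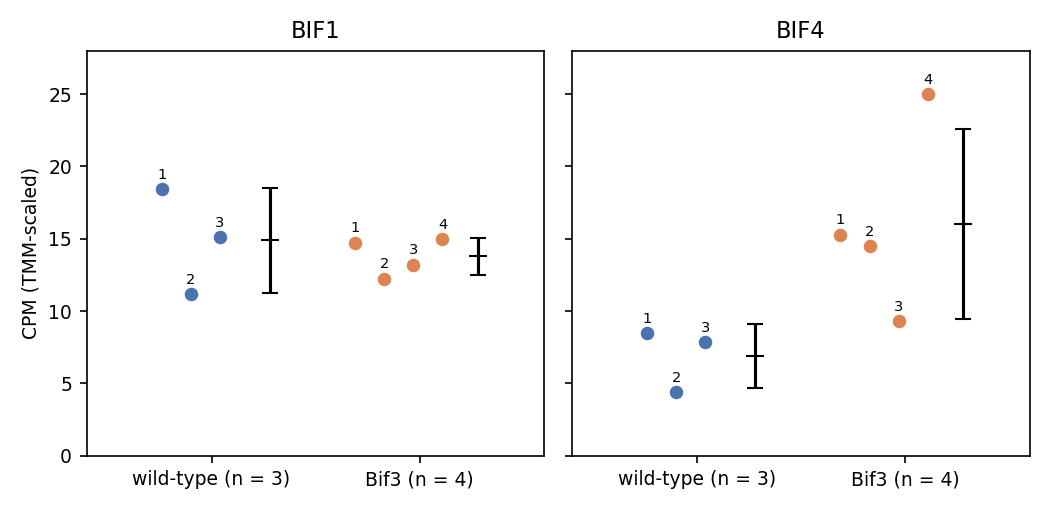
TMM-scaled CPM of *BIF1* (left) and *BIF4* (right) in the 3 wild-type and 4 *Bif3/Bif3* pools, with replicate numbers beside the points and the mean ± SD as a black bar. The genotypes overlap for *BIF1*, whereas the 4 mutant pools of *BIF4* span 9.28 to 25.0 CPM above the wild-type range of 4.37 to 8.48 CPM.

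*BIF1* did not pass the threshold. It had 18.4, 11.2 and 15.1 CPM in wild-type and 14.7, 12.2, 13.2 and 15.0 CPM in *Bif3/Bif3*. All 4 mutant pools lay inside the range of the wild-type pools, of which replicate 1 was the highest and replicate 2 the lowest of all 7. Mutant pools averaged 13.8 ± 1.29 CPM (SD, n = 4) and wild-type pools 14.9 ± 3.63 CPM (SD, n = 3). The log2 fold change of *BIF1* was -0.11 with a standard error of 0.14 (edgeR adjusted p of 1) and a 95% interval from -0.42 to 0.19. Exact permutation as for *BIF4* gave p = 0.629. The interval of *BIF1* leaves room for a change between 0.750-fold and 1.14-fold, and therefore ends below the 1.59-fold at which the interval of *BIF4* begins. Without wild-type replicate 1 the small difference of *BIF1* changed sign, to a log2 fold change of 0.070.

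The genes also differed in how much the pools of a genotype varied. Among mutant pools the highest value was 2.69-fold the lowest for *BIF4* and 1.22-fold for *BIF1*. Among wild-type pools these ranges were 1.94-fold and 1.65-fold. The larger spread of *BIF4* was thus most marked in *Bif3/Bif3*, where the SD was 41.0% of the mean against 9.37% for *BIF1*. The spread itself was not tested.

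To compare the paralogs directly, the CPM of *BIF4* was divided by that of *BIF1* within each pool, which removes the scaling of the library. This ratio is not corrected for transcript length, so only its change between pools is read. It was 0.460, 0.391 and 0.519 in wild-type and 1.04, 1.18, 0.703 and 1.67 in *Bif3/Bif3*. *BIF1* had more counts than *BIF4* in every wild-type pool, while *BIF4* had more in 3 of the 4 mutant pools. The mean log2 ratio was 0.13 ± 0.52 (SD, n = 4) in *Bif3/Bif3* and -1.14 ± 0.20 (SD, n = 3) in wild-type, a difference of 1.27 on the log2 scale. Exact permutation of this difference over the 35 splits, two-sided, gave p = 0.0571, again above the smallest possible 0.0286, although no mutant pool overlapped with wild-type. It was the third of 3 such tests on the members, without adjustment. Leaving out single pools kept the difference between 1.07, without *Bif3/Bif3* replicate 4, and 1.48, without *Bif3/Bif3* replicate 3.

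**Figure D2:**
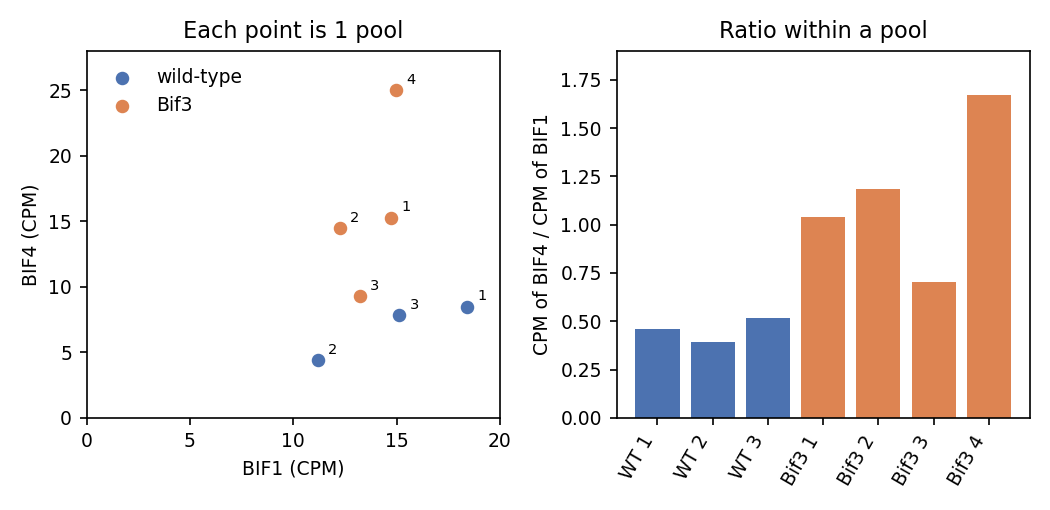
Left, CPM of *BIF4* against CPM of *BIF1*, where each point is 1 pool with its replicate number. Right, the CPM of *BIF4* divided by that of *BIF1* in each pool, between 0.391 and 0.519 in wild-type and between 0.703 and 1.67 in *Bif3/Bif3*.

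Whether *BIF1* and *BIF4* vary together could not be tested by a correlation over the 7 pools, because the genotypes separate completely in *BIF4*, and 3 or 4 pools are too few within a genotype. The order of the pools is therefore given as a description. In wild-type both genes were highest in replicate 1, then replicate 3, then replicate 2. In *Bif3/Bif3* both were highest in replicate 4 and then replicate 1, and only replicates 2 and 3 changed places. The 2 genes thus ordered 8 of the 9 pairs of pools within a genotype alike. Of the 19706 genes other than *BIF1* whose mean log2 CPM was at least 1, *BIF4* included, 4.51% matched the order of *BIF1* in at least as many pairs. The share of genes that matched the order of *BIF4* as well is not given here and may differ. With library sizes that were not TMM-scaled, *BIF4* matched *BIF1* in 77.8% of the pairs in place of 88.9%. The sizes of the deviations differed. In *Bif3/Bif3* replicate 4, *BIF4* was 0.73 above its genotype mean on the log2 scale and *BIF1* 0.12 above, and in replicate 3 *BIF4* was 0.70 below (-0.70) and *BIF1* 0.06 below (-0.06). In wild-type replicate 2 both were low, with deviations of -0.60 for *BIF4* and -0.39 for *BIF1*.

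Markers of other parts of the ear also varied between these pools. The shoot meristem gene *KN1*, with 498, 418 and 485 CPM in wild-type and 547, 540, 486 and 617 CPM in *Bif3/Bif3*, had the order of *BIF4* in all 9 pairs of pools within a genotype and that of *BIF1* in 8. Its range was much narrower than that of *BIF4*, the genotypes overlapped, and it did not pass the threshold in the edgeR fit. The summed level of the lateral organ genes *ZYB15*, *YAB14* and *YAB9* was 29.9, 89.8 and 48.6 CPM in wild-type and 84.0, 73.1, 44.2 and 39.7 CPM in *Bif3/Bif3*. It was highest in wild-type replicate 2, the pool with the least *BIF1* and *BIF4*, and lowest in wild-type replicate 1, the pool with the most *BIF1*. The summed level of 4 AM genes, *RA1*, *RA3*, *BA1* and *BAF1*, was 235, 155 and 240 CPM in wild-type and 79.4, 79.3, 131 and 144 CPM in *Bif3/Bif3*, without overlap. *BA1*, *BAF1* and *RA3*, 3 of the 4, were past the threshold and lower, against 0.171% of all genes and 0.629% of those whose mean log2 CPM was at least 1, and *RA1* had a log2 fold change of -0.50 without passing. The study had already reported *BA1*, *BAF1* and *RA3* as lower in these same samples. Their count is therefore no independent result, and the shares over all genes are no test of it. *RA2*, which the study also reported as lower, was not matched to an identifier. In *Bif3/Bif3* the summed level of the 4 genes was lowest in replicates 1 and 2, not in the pools with the least or the most *BIF4*. No gene of the lateral organ list was past the threshold, and no marker named here was at 0 in any pool. The part of these markers in the values of *BIF1* and *BIF4* was not tested.

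The gene table supplied with the data names 19 identifiers as *Aux/IAA* genes, *BIF1* and *BIF4* included. One of them had no count, and 17 had more than 3 counts in every pool. Among the 19, 2 passed the threshold as higher and 1 as lower in *Bif3/Bif3*, against 1% and 0.171% of all genes and 4.21% and 0.629% of those whose mean log2 CPM was at least 1. In either direction 1.17% of all genes and 4.84% of the latter were past it. The higher genes were *BIF4* and *AUX18* (*ZmIAA4*), and the lower gene was *AUX10* (*ZmIAA9*). The other 15 with counts, *BIF1* among them, did not pass. The median log2 fold change of the 18 genes with counts was 0.31, and that of the 45361 genes of the table with counts was -0.0045. All mutant pools were above all wild-type pools in 3 of the 18 genes, where 10.1% of the genes whose mean log2 CPM was at least 1 were, and below in 4 of them, where 13% were.

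*AUX18* (*GRMZM2G104176*) had 6.35, 6.80 and 5.85 CPM in wild-type and 14.3, 16.6, 9.49 and 12 CPM in *Bif3/Bif3*. As for *BIF4*, every mutant pool was above wild-type and replicate 3 was the lowest of them, but the highest was replicate 2. Its log2 fold change was 1.05 with a standard error of 0.17 (edgeR adjusted p of 0.00324), and it was past the threshold in all 15 alternative fits, which *BIF4* was not.

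*AUX10* (*GRMZM2G057067*) went the other way. It had 12.9, 10.7 and 11.0 CPM in wild-type and 4.42, 4.29, 5.98 and 4.87 CPM in *Bif3/Bif3*, so that each mutant pool was below each wild-type pool. Its log2 fold change was -1.24 with a standard error of 0.15 (edgeR adjusted p of 3.69e-04), in size close to that of *BIF4* with the opposite sign, and it also passed in all 15 alternative fits. In the annotation of the study's gene list *BIF4*, *AUX18* and *AUX10* carry the same Arabidopsis name, *IAA26/PAP1*. That list was chosen on these samples and is used here for names only.

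Some further family members lay near the threshold and are named here after their values were seen. *AUX3* (*ZmIAA5*) had 14.6 to 15.3 CPM in wild-type and 18.2 to 23.9 CPM in *Bif3/Bif3*. Its edgeR adjusted p was 0.0332, but its log2 fold change of 0.50 is under 1.5-fold. *AUX1* (*ZmIAA18*) and *AUX9* (*ZmIAA26*, *GRMZM2G048131*) had fewer counts and log2 fold changes of -1.15 and -0.82. Both were below wild-type in all 4 mutant pools and did not pass when every gene was tested, the edgeR adjusted p being 0.131 for *AUX1* and 0.173 for *AUX9*. Both passed with DESeq2, with limma-voom, after low counts were filtered out, after genes without counts were removed, and without wild-type replicate 2, so that 3 in place of 1 *Aux/IAA* genes were then lower. Without *Bif3/Bif3* replicate 2 only *AUX1* was added. Without wild-type replicate 2, *AUX35*, *AUX36* and *IAA12* passed as well, and 5 *Aux/IAA* genes were higher. *AUX35* had 1.08, 3.85 and 1.32 CPM in wild-type and 6.10, 6.26, 2.72 and 2.50 CPM in *Bif3/Bif3*, high in wild-type replicate 2 as the lateral organ markers were. *BIF4* was low in that pool, and was past the threshold with and without it.

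**Figure D3:**
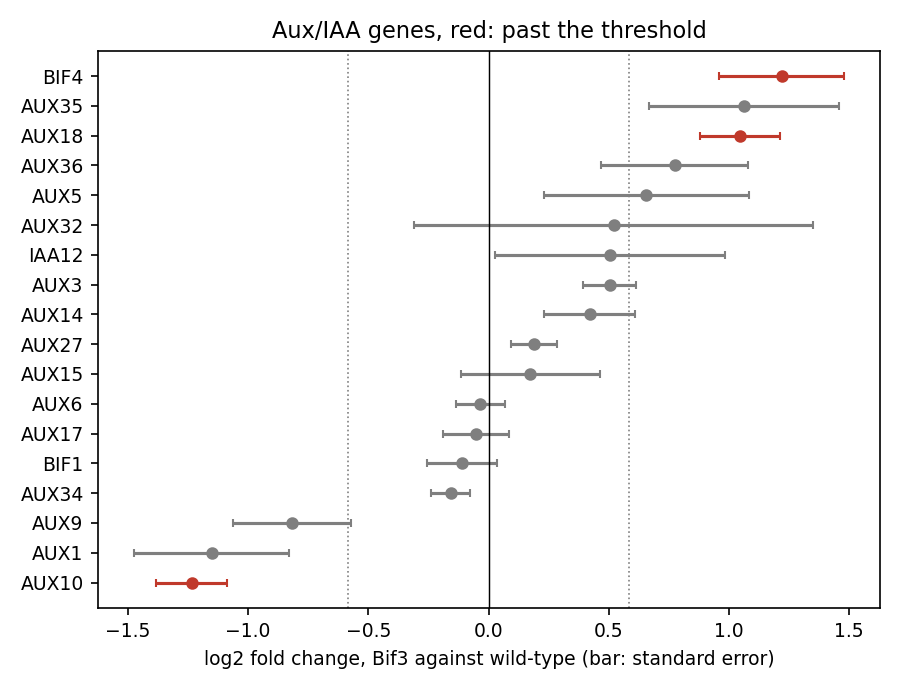
Log2 fold change (*Bif3/Bif3* against wild-type) with its standard error for the 18 *Aux/IAA* genes with counts, in order of size. Red marks the 3 genes past the threshold, dotted lines mark a fold change of 1.5, and *BIF1* and *BIF4* lie at -0.11 and 1.22.

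The summed level of the 19 matched *Aux/IAA* identifiers was 347 to 367 CPM in wild-type and 366 to 394 CPM in *Bif3/Bif3*. Family members without a matched name are not in this sum, and *RUM1* was not matched. *AUX34*, which is annotated as a relative of the root gene *RUM1*, had a log2 fold change of -0.16 (edgeR adjusted p of 0.880). *AUX6*, *AUX17* and *BIF1* were nearer to 0, with log2 fold changes of -0.03, -0.05 and -0.11.

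No partner of Aux/IAA proteins that was matched passed the threshold. Of 20 *ARF* genes named in the gene table, 19 had counts and 0 were past the threshold in either direction in the edgeR fit. Over all genes 1.17% were, and 4.84% of those whose mean log2 CPM was at least 1, so that a count of 0 in 19 is near the background. At an unadjusted p under 0.05, which is no call, there were 6 of them, *ARF13*, *ARF18*, *ARF3*, *ARF9* and *ARF21* with positive and *ARF5* with negative log2 fold changes. The share at such a p was 6.72% of all genes and 26.6% of those whose mean log2 CPM was at least 1. DESeq2 and limma-voom each called 1, *ARF5*, lower. *ARF5* had 1.01 to 1.62 CPM in wild-type and 0.446 to 0.803 CPM in *Bif3/Bif3*, so that its log2 fold change was -1.04 (edgeR adjusted p of 0.164). It also passed after low counts were filtered out, after genes without counts were removed and without *Bif3/Bif3* replicate 3. *ARF3* and *ARF9* were called higher without wild-type replicate 2. The median log2 fold change of the 19 genes was 0.03.

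*REL2*, the TOPLESS-type corepressor, had 708, 765 and 742 CPM in wild-type and 623, 688, 739 and 758 CPM in *Bif3/Bif3*. The genotypes overlapped, and the log2 fold change of *REL2* was -0.07 (standard error 0.095, interval at 95% from -0.27 to 0.13, edgeR adjusted p of 1). The TIR1/AFB receptor genes were not matched to an identifier and were not analysed here.

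*BA1* had 29.5, 16.7 and 27.7 CPM in wild-type and 9.23, 8.66, 13.7 and 12.4 CPM in *Bif3/Bif3*. It fell by 1.16 on the log2 scale (standard error 0.18, edgeR adjusted p of 0.00271) and every mutant pool was below wild-type. Within wild-type *BA1* had the pool order of *BIF1* and *BIF4*, with replicate 1 highest and replicate 2 lowest. In *Bif3/Bif3* it was highest in replicate 3, where *BIF4* was lowest, and next highest in replicate 4, where *BIF4* was highest. Of 2 other auxin genes of the inflorescence, *SPI1*, a YUCCA-like gene of auxin synthesis, had 0.781 to 1.58 CPM in wild-type and 1.79 to 2.94 CPM in *Bif3/Bif3*. Its log2 fold change of 0.90 was not past the threshold (edgeR adjusted p of 0.201), although all mutant pools were above wild-type. *SPI1* was past it in 5 of 15 alternatives: with DESeq2, with limma-voom, after low counts were filtered out, after genes without counts were removed and without wild-type replicate 1. *BIF2*, a PINOID-type kinase that acts on auxin transport, had a log2 fold change of 0.39 (edgeR adjusted p of 1).

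The genes with the pattern most like each paralog were sought by Pearson's r of log2(CPM + 0.5) over the 7 pools, among 19706 genes whose mean log2 CPM was at least 1, as a description without a test. All points share their libraries and scaling. For *BIF4* the closest was *GRMZM2G071959*, a histone H2B gene (*histone2b1*), with r = 0.997. It had 127, 101 and 123 CPM in wild-type and 169, 164, 136 and 203 CPM in *Bif3/Bif3*. Its pools thus had the order of *BIF4* over a narrower range, and its log2 fold change was 0.52. *GRMZM2G100620*, *GRMZM2G006953*, *GRMZM2G350800* and *GRMZM2G046459* followed, with r from 0.992 to 0.996, and only *GRMZM2G350800* of these 5 genes was past the threshold. The most opposite patterns were those of *GRMZM5G862538*, *GRMZM5G882253* and *GRMZM2G061419*, with r from -0.988 to -0.985. In all, 680 genes (3.45%) had an r over 0.9 with *BIF4*.

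With *BIF1*, 34 genes (0.173%) had an r over 0.9. The closest was *GRMZM2G157132* with r = 0.988, which had 8.43, 6.97 and 7.97 CPM in wild-type and 7.80, 7.24, 7.59 and 7.95 CPM in *Bif3/Bif3*. *GRMZM2G060627*, *GRMZM2G000601*, *GRMZM2G107896* and *GRMZM2G045185* came next, with r from 0.959 to 0.978, and none of the 5 was past the threshold. The most opposite were *GRMZM2G051541*, *GRMZM2G085078* and *GRMZM2G153274*, with r from -0.978 to -0.973. No gene was among the closest 5 of both paralogs. The 5 closest to *BIF4* were above wild-type in every mutant pool, whereas the genotypes overlapped in the 5 closest to *BIF1*. An r with *BIF4* over the 7 pools thus takes in the difference between genotypes. The numbers of genes with an r over 0.9 are therefore not a like comparison of the paralogs.

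**Figure D4:**
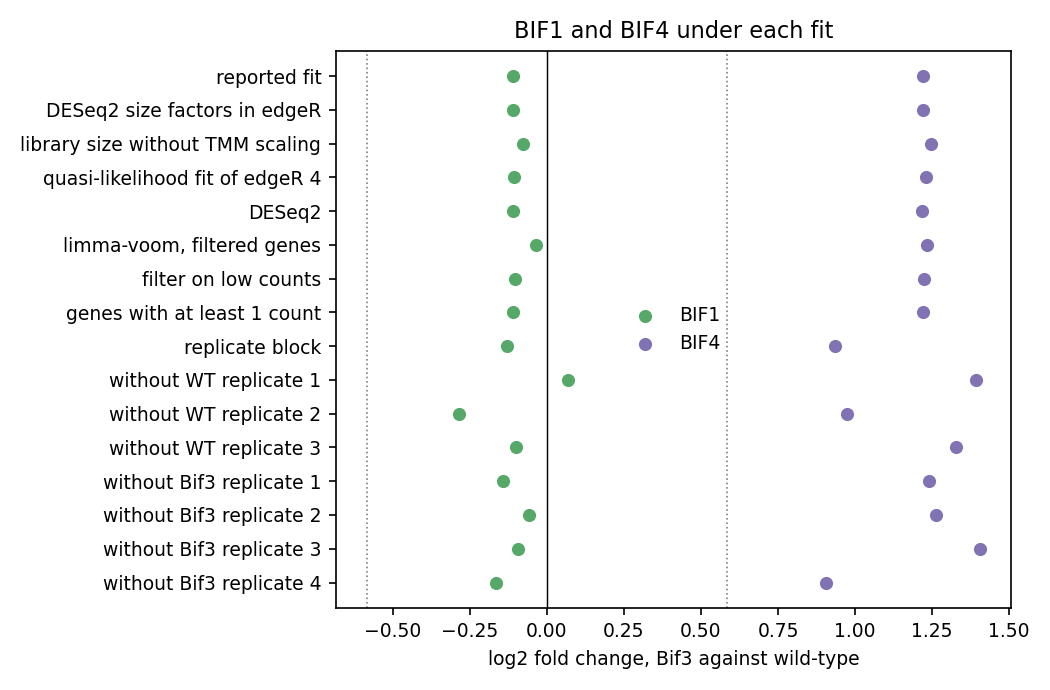
Log2 fold change (*Bif3/Bif3* against wild-type) of *BIF1* and *BIF4* in the reported fit and the 15 alternative fits, with dotted lines at a fold change of 1.5. *BIF4* runs from 0.91 to 1.41 and *BIF1* from -0.28 to 0.07, without overlap.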

How the data were processed

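Stranded mRNA libraries were sequenced. Per the paper the authors used Trimmomatic, HISAT on the B73 v3 assembly and HTSeq-count, whereas the submitters' processing notes name TopHat2 2.1.1 and Cuffdiff. The deposited values are whole-number counts per gene without normalization. The strand setting and annotation release are not given in the sources used here, so counts of genes with near-identical copies or neighbours that overlap are less certain. Total counts per pool were 41720131 to 56057512. Intervals from counts cover counting error only.

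All 110451 genes were tested in R 4.3.3 with edgeR 4.0.16 (quasi-likelihood test in the form of earlier versions, TMM scaling, no covariate, Benjamini-Hochberg adjustment), the threshold being that of the study. A standard error is the absolute log2 fold change divided by the root of F. Alternatives were other scalings, DESeq2 1.42.0, limma-voom (limma 3.58.1) with quality weights, the fit of edgeR 4, removal of low counts by edgeR's filterByExpr, removal of genes without any count, the replicate number as a block and each pool left out.

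Gene names came from a RefSeq gene table of assembly NAM-5.0, which matched 19075 identifiers. *Aux/IAA* genes are those with a synonym *AUX* or *IAA* and a number, and *ARF* genes those named likewise, a wording widened after the table was seen. Named genes are the members, family members past the threshold, the partners above, *ZmWUS1* and the 5 most and 3 least like genes of each member. Members and lists were chosen with earlier results of these data known. No protein or promoter sequence was used here. Equal replicate numbers are not stated to mark shared plants or plots. Each pool is described as a biological replicate. For every pair of pools at least 34.7% of the genes with 50 or more counts in all differed by more than counting noise, so the pools were treated as separate libraries.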

Additional observations from a re-analysis of the deposited data

Results flagged for a closer look

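*ZmWUS1* had 12.8 CPM in *Bif3/Bif3* replicate 4, a value that stood far from the other 3 mutant pools (3.82 to 5.13 CPM) by Dixon's criterion. *BIF4* was also highest in that pool, at 25.0 CPM, but did not meet the criterion. It was applied to 10 sets of *Bif3/Bif3* values, of which chance flags about 1 in 20.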

How the results depend on the processing

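*BIF4* was past the threshold in 14 of 15 alternative fits, the exception being the quasi-likelihood fit of edgeR 4 (log2 fold change 1.23, adjusted p = 0.111 in a range from 9.23e-04 to 0.111). Leaving out single pools gave log2 fold changes from 0.91 to 1.41 for *BIF4* and from -0.28 to 0.070 for *BIF1*, which was past the threshold in 0 of its 15 (DESeq2 and limma-voom included) and reversed to 0.070 without wild-type replicate 1. With the replicate number as a block, *BIF4* had a log2 fold change of 0.93 and *BIF1* one of -0.13, and no call of either changed. *Bif3/Bif3* replicate 4 has no partner and adds nothing to this fit. Equal numbers were not taken to pair the pools, because the correlations of their deviations over genes were -0.0026, 0.508 and 0.266 for numbers 1, 2 and 3 and thus not all above 0.1, and only number 2 correlated best with its own number in both genotypes. Unequal numbers gave -0.401 to 0.312. The block raised the *Aux/IAA* genes called higher from 2 to 3, adding *AUX35*, called *ARF3* and *ARF9* higher and *ARF5* lower where 0 *ARF* genes were called, and moved the calls over all genes from 1108 to 1477 higher and from 189 to 279 lower.

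The 2 higher *Aux/IAA* genes became 1 with the fit of edgeR 4 and were between 2 and 5 with single pools left out, the 5 without wild-type replicate 2. The 1 lower gene became 3 with DESeq2, with limma-voom, after low counts were filtered out and after genes without counts were removed, and was between 1 and 3 with single pools left out. An adjusted p under 0.05 left 2 and 1, and no limit on fold change gave 3 and 1. DESeq2 called 1747 genes higher and 311 lower over all genes, and limma-voom 2017 and 349. Leaving out wild-type replicate 2 gave 1553 and 406. Removing genes without counts gave 1625 and 325, with the adjustment made over 45361 genes in place of 110451. In that fit the log2 fold change and unadjusted p of *BIF4* stayed the same, and its edgeR adjusted p went from 0.0268 to 0.0110. Why the other settings moved the calls was not tested. With a pseudocount of 1 CPM the difference in log2 ratio of *BIF4* to *BIF1* was 1.15, and without TMM scaling it did not move, since scaling cancels. No correlation of *BIF1* with *BIF4* was given, and the alternatives for it were applied to the order of the pools, which matched in 77.8% to 100% of the pairs. Depth does not limit *BIF1* or *BIF4*, and 7 pools limit the exact tests to 0.0286.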
